A study of Mus musculus with 4 samples.

Results

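The Iroquois homeobox genes Irx1 to Irx6 were examined for binding of NKX2.2 in alphaTC6 cells. These 6 genes, of 21887 protein-coding genes in the RefSeq table of the mouse assembly GRCm38.p6, were taken by symbol, and every NKX2.2 peak summit in a gene or within 10, 50 and 200 kb of either end of it was collected. All 6 genes were found. Irx1, Irx2 and Irx4 lie in 1 cluster on chromosome 13, and Irx3, Irx5 and Irx6 in the other on chromosome 8. In all, 15 summits of the 7384 in the list met the widest distance. 8 of them lay at the chromosome 13 cluster and 7 at the chromosome 8 cluster.

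NKX2.2 is a homeodomain transcription factor of the developing and adult endocrine pancreas, which can repress genes through Groucho corepressors and activate others. Iroquois proteins are homeodomain factors of the TALE superclass, with roles in patterning the neural tube, heart and limb. In vertebrates the genes sit in a pair of clusters that arose by duplication, so that Irx1 and Irx3, Irx2 and Irx5, and Irx4 and Irx6 hold matching places, and the long stretches between the genes hold many of their enhancers. In the pancreas, Irx1 and Irx2 are known as genes of the glucagon-producing alpha cell.

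The series holds 4 samples of wild-type alphaTC6 cells, 2 chromatin immunoprecipitations with an antibody to NKX2.2 and 2 inputs, which are unenriched DNA. AlphaTC6 is a line of mouse alpha cells, and lines of this kind were derived from tumours of mice that carried a viral oncogene under the glucagon gene promoter. All libraries come from this 1 line, and no expression was measured, so its alpha cell identity could not be checked against markers. The outcome was 1 list of peak summits for the series, in which a summit is the single base where a peak is highest. The list holds no value per library, so the depth is unknown, and no value below has a replicate error or a test. Each summit carries a score, the authors' own value, taken as the −log10 of the MACS2 q-value. Scores ran from 2.03 to 1648 with a median of 13.7, with quartiles at 7.98 and 27.7. Positions are given counting from 1 in mm10, the build in the submitters' processing notes, which is the UCSC name of GRCm38.

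The promoters are shown first, because a summit fell in the promoter of Irx2 and in that of Crnde, a noncoding gene beside Irx5. RefSeq (GRCm38.p6) gave a start for Irx2, Irx3 and Irx4 of the 6 Irx genes. Without a start for Irx1, Irx5 and Irx6, a summit in their promoters could not be looked for. The 250 bases before each start are printed on the gene's own strand, with those of Irx3 and Irx4 as promoters without a summit. Capitals mark the letters AAGTG, the core of the NKX2-2 motif, and CACCC, the core of KLF sites, on either strand (CACTT and GGGTG on the opposite one).
Irx2, chr13:72628570-72628819, plus strand: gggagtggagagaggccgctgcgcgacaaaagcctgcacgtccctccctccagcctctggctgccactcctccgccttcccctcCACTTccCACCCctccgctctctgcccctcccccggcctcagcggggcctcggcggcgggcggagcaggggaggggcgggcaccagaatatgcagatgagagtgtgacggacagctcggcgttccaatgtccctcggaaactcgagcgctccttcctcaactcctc
Crnde, chr8:92356121-92356370, minus strand: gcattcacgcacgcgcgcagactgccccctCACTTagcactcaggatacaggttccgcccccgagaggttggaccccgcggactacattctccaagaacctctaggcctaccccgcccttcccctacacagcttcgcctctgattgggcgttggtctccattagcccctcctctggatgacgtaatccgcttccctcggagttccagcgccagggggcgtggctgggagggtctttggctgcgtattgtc
Irx3, chr8:91801655-91801904, minus strand: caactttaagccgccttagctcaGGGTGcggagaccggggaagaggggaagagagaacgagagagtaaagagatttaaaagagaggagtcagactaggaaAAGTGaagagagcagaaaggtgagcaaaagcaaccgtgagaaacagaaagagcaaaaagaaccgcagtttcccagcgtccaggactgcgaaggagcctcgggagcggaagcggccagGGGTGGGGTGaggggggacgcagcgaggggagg
Irx4, chr13:73260247-73260496, plus strand: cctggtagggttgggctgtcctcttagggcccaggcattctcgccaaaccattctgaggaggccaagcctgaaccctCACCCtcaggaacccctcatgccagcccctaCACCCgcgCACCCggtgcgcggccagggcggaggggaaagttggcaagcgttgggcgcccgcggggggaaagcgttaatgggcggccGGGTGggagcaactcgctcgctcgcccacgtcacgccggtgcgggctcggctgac

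In the Irx2 promoter the summit, at position 72628729 of chromosome 13, was base 160 of the printed sequence and lay 91 bp upstream of the start. The sequence held 1 AAGTG match, at bases 85 to 89, and 1 CACCC match, at bases 92 to 96. The centres of these matches lay 73 and 66 bases from the summit. In the Crnde promoter the summit was base 70, 181 bp upstream of the start, and the single AAGTG match, at bases 31 to 35, was centred 37 bases away. The Crnde sequence held no CACCC. Among the promoters without a summit, that of Irx3 held 1 AAGTG and 3 CACCC matches, and that of Irx4 held 4 CACCC matches and no AAGTG. The fuller NKX2-2 letters TNAAGTG occurred in none of these 4 sequences on either strand. Every TNAAGTG match also holds an AAGTG match.

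Such matches are common. AAGTG occurred in 40.7% of all 32851 RefSeq promoters of this length, TNAAGTG in 10.1% and CACCC in 52.0%. A summit lay in the window of 250 bases before to 50 after the start for 1624 of these promoters, 4.94%. Of these 1624, 39.0% held AAGTG, 7.82% held TNAAGTG and 57.5% held CACCC, against 40.8%, 10.2% and 51.7% of the other promoters. The promoters of the Irx genes were rich in G and C, at 68.4% for Irx2, 68.8% for Irx4 and 56.0% for Irx3, and that of Crnde had 62.0%. The median was 52.4% over all promoters and 60.8% over those with a summit.

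The Irx2 and Crnde promoters both face a neighbouring gene. The summit of Irx2 also fell in the promoter window of Gm20554, a noncoding gene on the opposite strand, 165 bp upstream of its start. The starts of Irx2 and Gm20554 lie 256 bp apart. At Irx5 the summit, at position 92356301 of chromosome 8, lay between the start of Crnde and the nearer end of Irx5, which are 1676 bp apart. It was 1495 bp from Irx5, outside the gene. Irx2 and Irx5 are the middle genes of their clusters. The Irx2 summit had a score of 19.7 and rank 2642 of 7384, and the summit at Irx5 had a score of 9.03 and rank 5164.

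Irx1 and Irx2 were the only Irx genes with a summit inside the annotated gene span, which 13.4% of all protein-coding genes had. At Irx2 this was the promoter summit, since the annotated span begins 4.39 kb to the left of the start used for the promoter. Irx1 (gene ID 16371, chr13:71958232-71963723) had 3 summits within 10 kb. One, at position 71952013, lay 6.22 kb outside the gene with a score of 5.32. The next, at 71959625, lay inside the gene with a score of 5.69. The last, at 71963726, lay 3 bp beyond the annotated right end with a score of 7.96. With no start given for Irx1, whether this summit lay in its promoter could not be told. All 3 scores were below the lower quartile of the list, with ranks from 5540 to 6556. Another summit, at 72029767, lay 66.0 kb away with a score of 5.90, so no summit within 200 kb of Irx1 reached a score of 8. 3 or more summits within 10 kb were found at 2.02% of all protein-coding genes, and at 0.591% of the 7952 genes no longer than Irx4, the longest Irx gene at 10034 bp. The minimum of 3 is the count of Irx1 itself, and the limit on length was chosen after seeing the data.

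Irx2 (gene ID 16372, chr13:72624430-72634196) had 2 summits within 10 kb. Beside the promoter summit there was one at position 72640128, 5.93 kb beyond the right end of the gene and 11308 bp from the start, with a score of 6.91. 2 or more summits within 10 kb were found at 6.79% of all protein-coding genes. The other summit within 200 kb, at position 72448719, lay 175.7 kb from Irx2 on the side of Irx1 and 485 kb from Irx1. Its score was 1009, the fifth highest of the list, and the list holds 5 summits with a score of 1000 or more. Of all protein-coding genes 0.151% had such a summit within 200 kb. The minimum of 1000 lies just below this summit's own score and leaves only 5 summits, so the share is small by construction. Its nearest annotated gene of any kind was the pseudogene Rpl9-ps4, at 5.94 kb, and the nearest protein-coding gene was Irx2.

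Irx4 (gene ID 50916, chr13:73259589-73269622), a gene known for its expression in the ventricles of the heart, had no summit within 10 or 50 kb. Its single summit within 200 kb, at position 73117572, lay 142 kb away with a score of 14.8. Of all protein-coding genes 61.4% had a summit at that distance or nearer.

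On chromosome 8, Irx3 (gene ID 16373, chr8:91798511-91801654) had no summit within 10 kb and 1 within 50 kb, at position 91777061, 21.45 kb away with a score of 7.76. Within 200 kb it had 5, the highest number of the 6 genes. On the side of Fto these were 2 more summits, at 91630845 inside Fto with a score of 5.50 and at 91713986 in the noncoding gene Gm36325 with a score of 10.2. On the side of Irx5 they were at 91974411 in LOC115486949, with a score of 40.2, and at 91991684 in Gm36670, with a score of 24.5. The latter lay 165 bp downstream of the start of Gm36670. 5 or more summits within 200 kb were found at 18.6% of all protein-coding genes.

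Irx5 (gene ID 54352, chr8:92357796-92361456) had the Crnde promoter summit and no other within 200 kb. Irx6 (gene ID 64379, chr8:92674289-92680956) had none within 10 or 50 kb. Its single summit within 200 kb, at position 92618359, lay 55.9 kb away in the interval towards Irx5. That summit had a score of 53.9 and rank 802, the second highest of the 15.

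**Figure D1:**
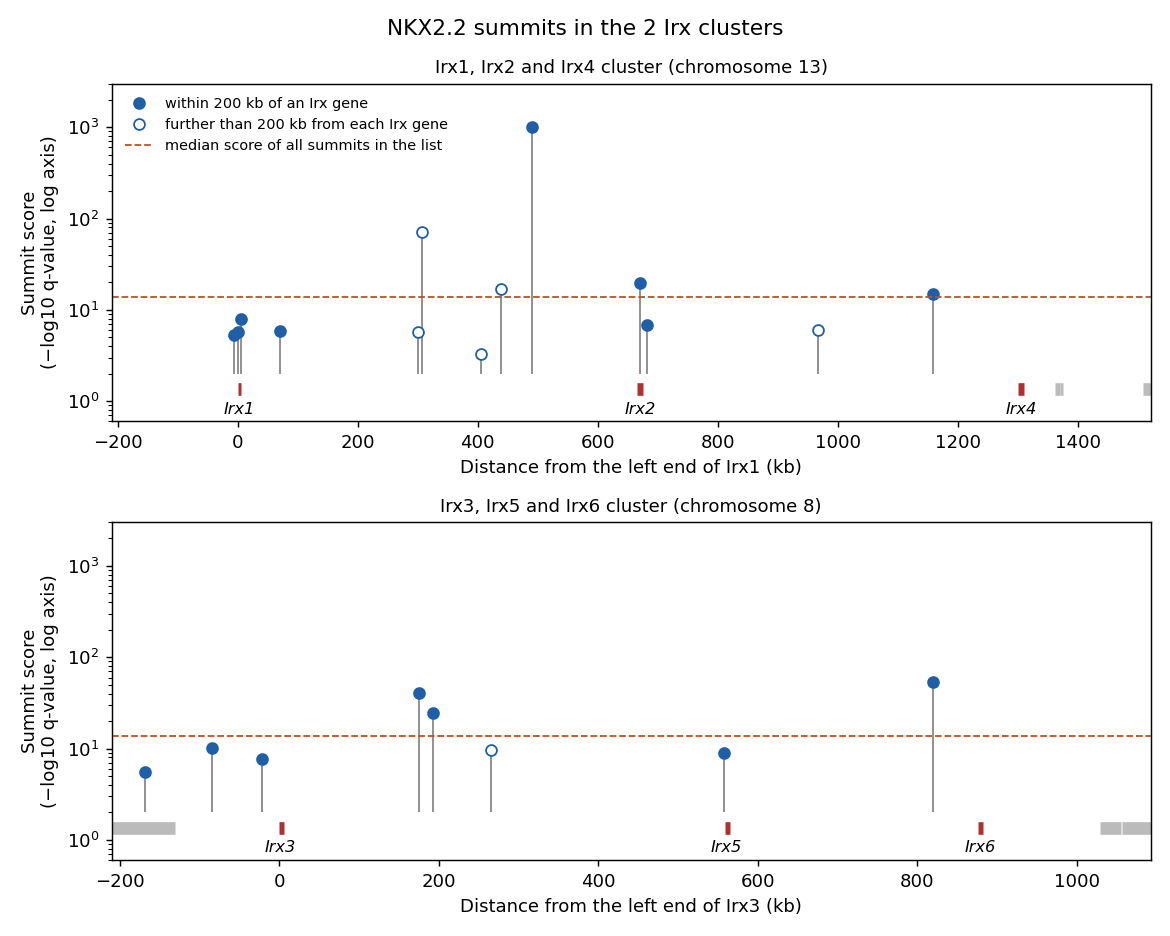
NKX2.2 summits in the 2 Irx clusters, by distance in kb from the left end of the first gene of each cluster (horizontal) and by score on a log axis (vertical). Red boxes are Irx genes and grey boxes other protein-coding genes (Ndufs6, Mrpl36 and Lpcat1 above, Fto, Mmp2 and Lpcat2 below), and open circles are summits further than 200 kb from each Irx gene. The summits at Irx1 stay below the list's median of 13.7, and the summit with a score of 1009, 1 of 7 between Irx1 and Irx2, is the highest shown.

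Irx1 and Irx2 were then set beside the other 4 genes. Within 10 kb, both alpha cell genes had a summit and 1 of the other 4 did, against 25.8% of all protein-coding genes. The 2 genes had 5 summits, or 2.5 per gene, and the other 4 had 1, or 0.25 per gene. The mean over all protein-coding genes was 0.361. Within 50 kb the counts were 5 summits at both alpha cell genes and 2 summits at 2 of the other 4, with 43.8% of all genes having a summit. Within 200 kb the contrast in number was smaller, with 7 summits (3.5 per gene) against 8 (2 per gene) and a mean of 2.34 over all genes. The median score was 6.91 over those 7 summits and 12.5 over those 8. With a score minimum of 10 the order turned, with 2 summits (1 per gene) at Irx1 and Irx2 and 5 (1.25 per gene) at the other 4. At this distance each of the 6 genes had a summit, as did 67.2% of all protein-coding genes.

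**Figure D2:**
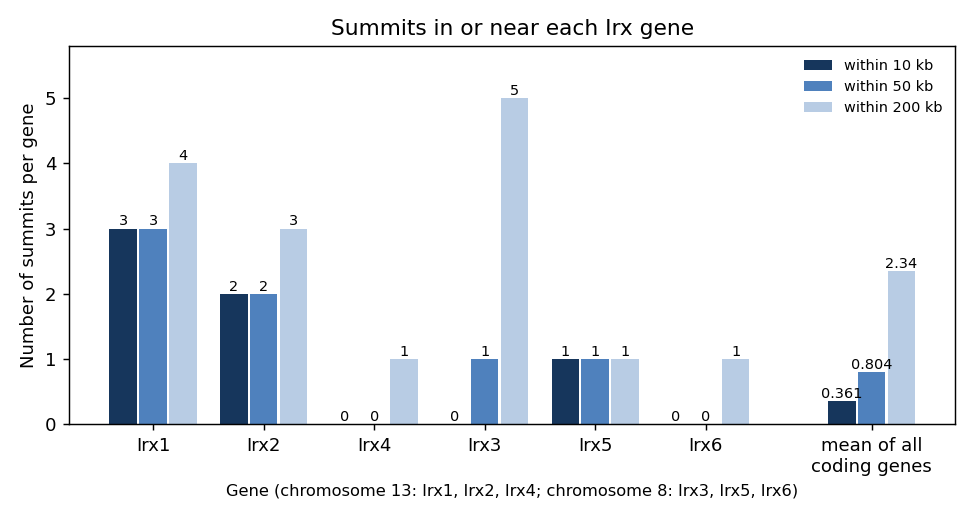
Number of summits (vertical) in or within 10, 50 and 200 kb of each Irx gene (horizontal), with the mean over all 21887 protein-coding genes on the right. Irx1 and Irx2 lead within 10 kb with 3 and 2 summits, and Irx3 leads within 200 kb with 5.

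The order of the genes by their nearest summit was Irx1 and Irx2, at 0 kb, then Irx5 at 1.5 kb (1495 bp), Irx3 at 21.45 kb, Irx6 at 55.9 kb and Irx4 at 142 kb. A summit at 0 kb, inside the gene, was found at 2927 protein-coding genes. A summit as near as that of Irx5 was found at 19.7% of all protein-coding genes, as near as that of Irx3 at 32.1% and as near as that of Irx6 at 45.5%.

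**Figure D3:**
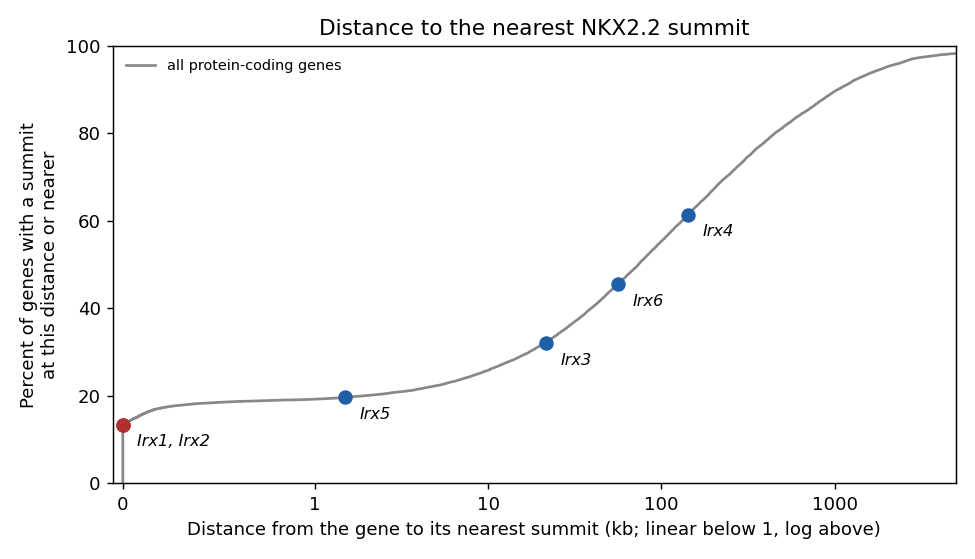
Share of protein-coding genes in percent (vertical) with a summit at a given distance in kb or nearer (horizontal, linear below 1 kb and log above). Irx1 and Irx2 (red) have a summit inside the annotated gene span, and the other Irx genes (blue) follow in the order Irx5, Irx3, Irx6 and Irx4.

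By score, the order was another. Irx2 had the highest summit within 10 kb (19.7), followed by Irx5 (9.03) and Irx1 (7.96). The median score was 6.91 over the 5 summits within 10 kb of Irx1 and Irx2. With a score minimum of 10, Irx2 was the only Irx gene with a summit within 10 kb, and 18.2% of all protein-coding genes had one. At that minimum, the genes with a summit within 200 kb were Irx2, Irx3, Irx4 and Irx6, and 59.1% of all protein-coding genes had one. Within 10 kb, the difference in number between the alpha cell genes and the others was thus made up of 4 summits with scores under 8 and the Irx2 promoter summit, against the single summit near Irx5.

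Over all 15 summits within 200 kb, the median score was 9.03. A score at or above the list's median was reached by 6 of them, 7 lay below the lower quartile and 3 above the upper quartile. The 3 highest, at scores of 1009, 53.9 and 40.2, all lay over 50 kb from an Irx gene. The 6 summits within 10 kb had a median score of 7.44, and none lay above the upper quartile.

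**Figure D4:**
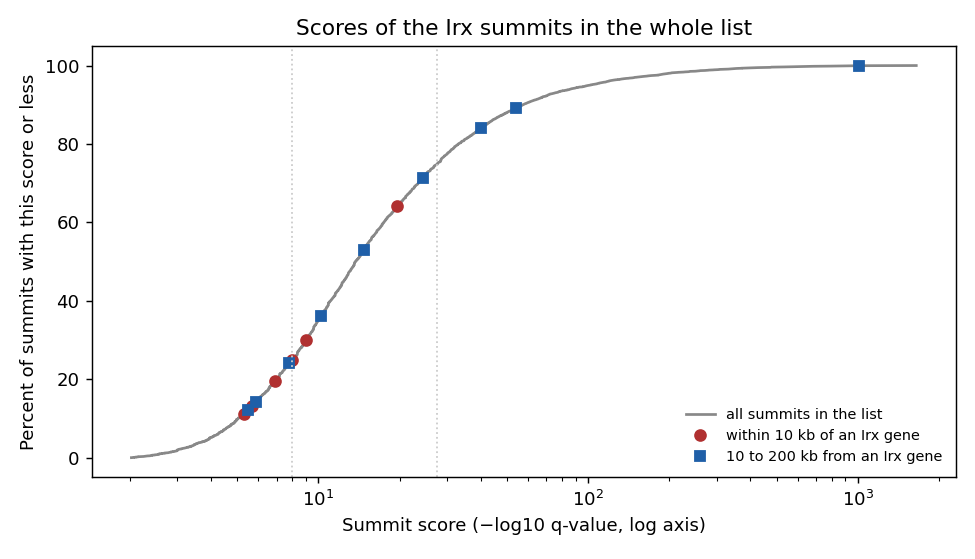
Scores of the 15 summits (horizontal, log axis) against the percent of all 7384 summits with that score or less (vertical). Dotted lines mark the quartiles of the list at 7.98 and 27.7. Of the 6 summits within 10 kb of an Irx gene (red circles), the one in the Irx2 promoter is the only one above the list's median.

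The intervals between the genes held further summits. The 661 kb between Irx1 and Irx2 held 7 summits, or 10.6 per Mb. They included the one with a score of 1009 and another, at position 72265949, with a score of 71.7 and rank 548. That one lay 302 kb from Irx1 and 358 kb from Irx2, so it was outside the 200 kb distance. Another 3 of the 7 were also outside it, at 72259057 (score 5.69), 72363133 (score 3.27) and 72397242 (score 17.1). The 625 kb between Irx2 and Irx4 held 3 summits, or 4.80 per Mb, with scores of up to 14.8. The 556 kb between Irx3 and Irx5 held 4, or 7.19 per Mb. The 313 kb between Irx5 and Irx6 held 1. Summits of the chromosome 13 cluster lay as close as 4.10 kb to each other, inside and at the right end of Irx1, and 6.89 kb, for the summits at 72259057 and 72265949. The closest on chromosome 8 were those in LOC115486949 and Gm36670, 17.3 kb apart. Irx4 lay in a stretch of 486 kb without a summit, from 73117572 to 73603927, and Irx6 in one of 952 kb, from 92618359 to 93569888. The farthest summit inside the 200 kb distance was the one in Gm36670, at 190.0 kb from Irx3, and the nearest outside it was that at 72397242, at 227 kb from Irx2.

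Counted from 200 kb before the first gene to 200 kb after the last, the chromosome 13 cluster held 13 summits in 1.71 Mb, or 7.60 per Mb. The chromosome 8 cluster held 8 in 1.28 Mb, or 6.24 per Mb. Chromosome 13 as a whole had 2.77 per Mb, chromosome 8 had 3.64, and the 19 autosomes and the X chromosome together had 2.84. With a score minimum of 10 the values were 2.92 and 3.12 per Mb in the clusters, 1.78 and 2.33 on the chromosomes and 1.84 overall. Of the 13 summits of the chromosome 13 cluster 5 reached a score of 10, and of the 8 of the chromosome 8 cluster 4 did. The cluster windows were unbroken and took in the stretches between the genes. Of their summits, 8 of 13 on chromosome 13 and 7 of 8 on chromosome 8 lay within 200 kb of an Irx gene. The chromosome values ran between the outermost protein-coding genes or summits. Counted per gene within 200 kb, the 6 Irx genes had 2.5 summits, against a mean of 2.34 over all protein-coding genes.

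Each of these windows held 21 annotated genes, of which 6 were protein-coding. On chromosome 13, 2 of 13 summits were inside an annotated gene of any kind, Irx1 and Irx2, and 10 lay over 1 kb from each annotated gene. On chromosome 8, 4 of 8 were inside an annotated gene, Fto and 3 noncoding genes, and 3 lay over 1 kb from each. The other protein-coding genes on chromosome 13 were Ndufs6 and Mrpl36, which encode mitochondrial proteins, and Lpcat1, an enzyme of phospholipid synthesis, and none had a summit within 10 kb. On chromosome 8, Mmp2, a matrix metalloproteinase, and Lpcat2 had none either. Fto, which encodes an RNA demethylase, had 4 summits within 10 kb. It is 355 kb long, against 10034 bp for the longest Irx gene. Of all protein-coding genes, whatever their length, 2.02% had 3 or more summits within 10 kb. Inside Fto lay 3 of the 4 summits, with scores of 13.7, 4.23 and 5.50. The highest of the 4, with a score of 32.9, lay in the annotated span of the neighbouring Rpgrip1l, 15 bp upstream of the Rpgrip1l start. It was 485 kb from Irx3 and so outside the window. Of the 15 summits, 13 had an Irx gene as the nearest protein-coding gene and the other 2 had Fto. With all annotated genes, 7 of the 15 had an Irx gene as the nearest, and the others had noncoding genes or pseudogenes, or Fto.

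Other genes of the same kind were counted beside the Irx genes. Of 12 TALE homeobox genes outside the Irx family, 4 had a summit within 10 kb (33.3%, against 25.8% of all protein-coding genes). Among them were Pbx2, whose highest summit had a score of 76.5, Meis1 (28.6) and Meis2 (10.5), which encode partners of other homeodomain factors. Of 12 further transcription factor genes of alpha and islet endocrine cells, 7 had a summit within 10 kb (58.3%). The highest scores were at Nkx2-2 itself (51.4), Neurod1 (14.8), Pax6 (13.7) and Etv1 (11.8).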

How the data were processed

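NKX2.2 binding was measured by ChIP-seq in alphaTC6 cells, with 2 ChIP and 2 input samples grouped by their titles. The authors' deposited list of MACS2 summits gives a −log10 q-value per peak. The submitters' processing notes also name FastQC, Bowtie2 and mm10. Versions, the handling of duplicate reads and whether replicates were pooled are not given in the sources used here. That the score is a −log10 q-value is read from the way MACS2 writes summit files, and the lowest score lies just above the value for q = 0.01.

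From the list, 7380 summits on chromosomes were compared with RefSeq gene ends (GRCm38.p6), counting 0 inside a gene. The distances were 10, 50 and 200 kb. Motifs were searched in RefSeq promoters. The counting was tested on simulated data, where planted summits were found at the right distance at all 200 genes tried. No test was made, since no value per library was given. Alternatives covered score minimums of 5 and 10, merging within 500 bp, distances, windows, gene sets and the assignment of summits. The genes named were the Irx genes, the protein-coding genes in the cluster windows, the nearest gene of summits there, and from each list the 4 genes with the highest summit. One gene that this rule names is not reported here. The members and lists were chosen with earlier results of these data known. Python 3.11.15, numpy 2.4.6 and pandas 2.3.3 were used.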

Additional observations from a re-analysis of the deposited data

How the results depend on the processing

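No paired analysis was possible because the summits carry no replicate values, so leaving out replicates was not run either. A score minimum of 5 and merging of summits within 500 bp left the counts at the Irx genes as they were, as did counting each summit for its nearest Irx gene. Distances from the start for Irx2, Irx3 and Irx4 left the number of Irx genes with a summit as it was. In summits, an alternative added after seeing the data, they gave 5 in place of 6 within 10 kb of an Irx gene and 4 in place of 5 at Irx1 and Irx2. At a score minimum of 10, the summits within 10, 50 and 200 kb of an Irx gene fell from 6, 7 and 15 to 1, 1 and 7. Those at Irx1 and Irx2 fell from 5, 5 and 7 to 1, 1 and 2, and those at the other 4 genes from 1, 2 and 8 to 0, 0 and 5, so that within 200 kb the order per gene turned. The Irx genes with a summit numbered 1 within 10 kb and 1 within 50 kb. The density fell to 2.92 per Mb on chromosome 13 and 3.12 on chromosome 8. With all annotated genes, 7 in place of 13 summits had an Irx gene as the nearest, and 16.7% of genes in place of 25.8% had a summit within 10 kb. Among genes no longer than Irx4, a background chosen after seeing the data, the shares with a summit were 17.4%, 35.3% and 58.1% within 10, 50 and 200 kb. With unknown depth, a missing summit shows only that no peak was called.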
